A study of Homo sapiens with 18 samples.

Results

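The genes described here are those of the cytosolic ribosomal proteins, chosen by symbol. A gene was taken where its symbol was RPL or RPS followed by a number and at most the letter A or X, or was RPLP0, RPLP1, RPLP2 or RPSA. Of the 57500 genes in the table, 77 met this rule, 46 of the large subunit and 31 of the small subunit. All 77 had at least 244 counts in every library and passed the filter on low counts, as did 16994 genes in all, so none of them was left out of a test.

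The libraries are poly(A) RNA-seq of IMR90, an established line of human fibroblasts, here overexpressing Parkin, a ubiquitin ligase that marks depolarized mitochondria for removal. Proliferating cells (Prol) were compared with cells made senescent by 20 Gy of irradiation (Sen (IR)), and with irradiated cells given the uncoupler CCCP from day 1 for 48 h to clear their mitochondria (Sen (IR) + CCCP). In the other 3 groups, irradiated and CCCP-treated cells then received 20 mM acetate from day 3, were transfected with mtDNA on day 10, or received both, and these groups are called acetate, mtDNA and the combination here. Each of the 6 groups has 3 libraries. All groups come from 1 cell line that carries the Parkin transgene, and the groups analysed here include no CCCP treatment of proliferating cells. They also include no transfection without mtDNA, so that mtDNA and the transfection itself cannot be told apart.

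Ribosomal proteins bind the ribosomal RNAs to form the large subunit, which joins amino acids, and the small subunit, which reads the mRNA. Their mRNAs are among the most abundant of a growing cell, and nearly all start with a 5′ terminal oligopyrimidine (TOP) tract, a C followed by further pyrimidines, through which LARP1 and mTOR control translation and stability. Cells that stop growing are known to make fewer ribosomes.

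The start of the transcript is shown first, for 14 genes that the results turn on or that lack the tract, because it is a sequence feature of these genes that the rule did not use. Each line gives 10 bases before and 20 bases from an annotated start, which is base 11, on the gene's strand (RefSeq promoters, GRCh38). Capitals mark every run of a C followed by at least 4 bases that are C or T. For a gene with several starts, one whose base 11 is a C followed by at least 4 pyrimidines was shown. Failing that, one with a run in the window was shown, so the windows favour the tract.
RPLP0 (chr12:120201092-120201121, minus strand): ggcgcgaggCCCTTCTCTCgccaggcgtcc
RPL12 (chr9:127451387-127451416, minus strand): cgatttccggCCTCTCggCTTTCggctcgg
RPL3 (chr22:39319604-39319633, minus strand): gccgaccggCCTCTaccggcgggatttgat
RPL31 (chr2:101002279-101002308, plus strand): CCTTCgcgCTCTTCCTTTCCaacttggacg
RPL41 (chr12:56116623-56116652, plus strand): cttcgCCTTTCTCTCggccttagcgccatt
RPS27 (chr1:153990752-153990781, plus strand): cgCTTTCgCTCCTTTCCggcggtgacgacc
RPS6 (chr9:19380217-19380246, minus strand): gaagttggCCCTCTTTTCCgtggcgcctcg
RPS9 (chr19:54200848-54200877, plus strand): gCTTCCgcgCCTCTTTCTCagtgaccgggt
RPS12 (chr6:132814559-132814588, plus strand): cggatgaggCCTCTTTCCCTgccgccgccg
RPS26 (chr12:56041908-56041937, plus strand): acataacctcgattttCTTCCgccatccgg
RPL17 (chr18:49492446-49492475, minus strand): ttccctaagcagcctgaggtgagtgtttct
RPS4X (chrX:72277229-72277258, minus strand): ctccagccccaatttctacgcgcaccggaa
RPL6 (chr12:112411423-112411452, minus strand): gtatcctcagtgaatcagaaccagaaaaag
RPS29 (chr14:49598691-49598720, minus strand): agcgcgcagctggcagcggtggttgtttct

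Of the 77 genes, 62 had a start in the RefSeq table, and 58 of the 62 (93.5%) had such a run within the 30-base window of at least 1 start. Among all 27305 genes of the table the share was 43.4%. On the opposite strand the shares were 19.4% of the 62 genes and 41.4% of all genes. In 46 of the 62 genes (74.2%) the base at 1 or more starts was itself a C followed by at least 4 pyrimidines, against 5.1% of all genes. Counted by start, 84.4% of the 77 starts of these 62 genes had a run in the window, against 38.4% of all starts. The start base was such a C in 59.7% and 4.1%. RPL17, RPL6, RPS4X and RPS29 had no run in the window, which says only that these letters are not next to the annotated start.

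The libraries had 24624886 to 46224280 counts on genes, and TMM normalization factors ran from 0.874 to 1.13. The 50 most abundant genes took 19.2% of counts in Prol, 16.6% in Sen (IR) and 11.3% in Sen (IR) + CCCP, and mtDNA-encoded genes took 2.65%, 2.12% and 0.123%. The summed level of 6 fibroblast markers, as counts-per-million after TMM normalization (CPM), was between 35602 and 39414 in Prol, between 19845 and 24659 in Sen (IR) and between 4367 and 6653 in the 4 groups given CCCP. Epithelial markers summed to at most 82.5 CPM, endothelial markers to at most 0.964 CPM and leukocyte markers to at most 2.13 CPM in any library. Sen (IR) replicate 3 and combination replicate 2 stood apart from the other libraries of their groups. Their pairs with those libraries had a chi-square per degree of freedom of 20.4 to 26.2, where 1 is sampling noise, while all other pairs within a group lay between 2.67 and 7.20.

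Levels within the set differed widely. In the authors' transcripts-per-million values (TPM), which are corrected for gene length, the mean over the 18 libraries was highest for RPL41 (1748 TPM), RPS2 (1015 TPM) and RPL7 (919 TPM). It was lowest for RPS15A (57.1 TPM), RPL36A (35.9 TPM) and RPS29 (15.2 TPM), and the median of the 77 genes was 256 TPM. These TPM follow the length of all annotated exons joined together, which in the median gene of the set is 3.31 times that of the canonical transcript, so the order of levels depends on the length used. Per kilobase of the canonical transcript the highest level was that of RPS24 (748 CPM per kb), followed by RPL41 (599 CPM per kb) and RPL6 (575 CPM per kb), and the lowest was that of RPS28 (20.3 CPM per kb).

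The summed share of the 77 genes was highest in proliferating cells. They held 2.48%, 2.28% and 2.48% of all gene counts in the Prol libraries and 1.47%, 1.56% and 1.67% in Sen (IR), so these groups did not overlap. The means were 2.41% ± 0.115 and 1.57% ± 0.101 (SD, n = 3), a ratio of 0.650, and the shares of TPM gave a ratio of 0.651. The share of counts was 1.72% ± 0.0531 in Sen (IR) + CCCP, 1.52% ± 0.0623 with acetate, 1.65% ± 0.0571 with mtDNA and 1.37% ± 0.0551 with the combination (SD, n = 3). The combination had the 3 lowest libraries of all (1.40%, 1.31% and 1.40%). The libraries are of bulk RNA scaled to their own totals, so that fewer of these mRNAs per cell and more RNA of other genes cannot be told apart, nor can fewer cells of a type and less RNA per cell.

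**Figure D1:**
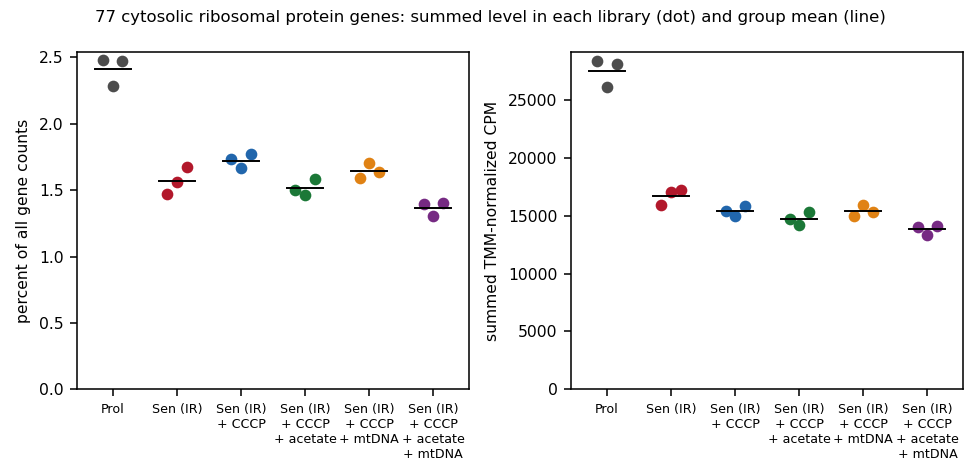
Summed level of the 77 ribosomal protein genes in each of the 18 libraries, as percent of all gene counts (left panel) and as summed TMM-normalized CPM (right panel); dots are libraries and lines are group means. Prol lies above all other groups on both scales, while Sen (IR) + CCCP lies above Sen (IR) in mean share of counts (1.72% against 1.57%) and below it in mean summed CPM (15394 against 16753).

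Where Sen (IR) + CCCP lay relative to Sen (IR) depended on the scale. Its summed share was 1.10 times that of Sen (IR) in counts and 1.25 times in TPM, but its summed TMM-normalized CPM was 0.919 times that of Sen (IR). The libraries of these groups overlapped in share of counts, but not in share of TPM or in summed CPM. With library totals as the only scaling, an alternative added after the data were seen, the median log2 fold change of all genes tested was 0.29 in this comparison, against 0.03 with TMM. Relative to the median of all genes, the median of the ribosomal protein genes was -0.26 with either scaling. Values below are TMM-normalized unless another scale is named.

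Nearly the whole set fell in irradiation-induced senescence. In Sen (IR) against Prol, 74 of the 77 genes were lower and 0 higher at an adjusted p under 0.05 in edgeR's quasi-likelihood test, with 0 higher also at an unadjusted p under 0.05 and in DESeq2's Wald test. Of all genes tested 29.9% were lower and 26.7% higher. The median log2 fold change was -0.70, which is 0.616-fold, against -0.01 over all genes tested, and each of the 77 genes lay below the median of all genes. In the large subunit 44 of 46 genes fell, with a median of -0.65, and in the small subunit 30 of 31 genes, with a median of -0.75. The small subunit's share of the set's counts was 36.5% ± 0.136 in Prol and 34.4% ± 0.687 in Sen (IR) (SD, n = 3).

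The 3 largest falls were in RPS15A, RPS3A and RPL9. RPS15A had 213, 176 and 203 CPM in Prol and 66.9, 69.2 and 99.6 CPM in Sen (IR) (log2 fold change -1.33, SE 0.12, adjusted p = 4.28e-09). RPS3A, near the site where the mRNA leaves the small subunit, had 676, 643 and 691 CPM in Prol and 252, 257 and 344 CPM in Sen (IR) (-1.24, SE 0.10, adjusted p = 3.73e-10). RPL9 of the large subunit had 586, 529.8 and 601 CPM and 244, 251 and 312 CPM (-1.09, SE 0.09, adjusted p = 1.17e-09). In these 3 genes Sen (IR) replicate 3 was the highest library of its group and still lay below every Prol library. Without that library their log2 fold changes were -1.54 for RPS15A, -1.40 for RPS3A and -1.21 for RPL9, and the set had 74 genes lower with a median of -0.71. The genes that did not pass the threshold were RPL36 (-0.20, SE 0.10, adjusted p = 0.0874), RPL41 (-0.17, SE 0.07, adjusted p = 0.0559) and RPS26 (-0.10, SE 0.08, adjusted p = 0.267). RPS26, which contacts the mRNA at the exit channel, had 135, 116 and 134 CPM in Prol and 116, 136 and 106 CPM in Sen (IR), and the groups overlapped.

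The stalk of the large subunit recruits translation factors and is built from RPLP0, on which dimers of RPLP1 and RPLP2 sit, with RPL12 at its base. RPLP0 had 758, 774 and 756 CPM in Prol and 379, 403 and 442 CPM in Sen (IR) (-0.90, SE 0.06, adjusted p = 1.18e-11). RPL12 went from 323, 298 and 321 CPM to 162, 172 and 191 CPM (-0.84, SE 0.06, adjusted p = 2.91e-11), and RPLP1 from 241, 186 and 232 CPM to 131, 144 and 117 CPM (-0.75, SE 0.09, adjusted p = 1.76e-07). RPLP2 also fell, from 114, 110.3 and 108 CPM to 82.5, 95.1 and 74.4 CPM (-0.40, SE 0.09, adjusted p = 0.000617), and none of the 4 stalk genes overlapped between the groups. In this comparison 10295 of the 16994 genes tested did not overlap. RPL5 and RPL11, which bring the 5S ribosomal RNA into the large subunit and can bind MDM2 outside the ribosome, fell by 0.68 (SE 0.05) and 0.64 (SE 0.06) on the log2 scale.

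Among large subunit proteins of the core and the exit tunnel, RPL3, at the peptidyl transferase centre, fell from 883, 887 and 885 CPM to 460.3, 466 and 456 CPM (-0.94, SE 0.04, adjusted p = 2.24e-14). RPL10, which joins the large subunit late, fell by 0.87 on the log2 scale, RPL39 and RPL4 of the tunnel wall by 0.79 and 0.59, and RPL22 by 0.51. Of the exon length of RPL10, 50.5% is shared with a gene on the other strand, and whether these libraries keep strand is not given in the sources used here, so its values here and in the other comparisons may include or lack reads of that stretch. In the small subunit RPS6, a target of S6 kinase, fell from 788, 740.4 and 799.6 CPM to 372, 378 and 413 CPM (0.499-fold, adjusted p = 3.38e-13). Other small-subunit genes followed by role fell too, with log2 fold changes of -0.91 for RPS3, -0.77 for RPSA, -0.75 for RPS4X, -0.75 for RPS27, -0.75 for RPS29, -0.71 for RPS27A, -0.69 for RPS19, -0.69 for RPS2 and -0.34 for RPS28.

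**Figure D2:**
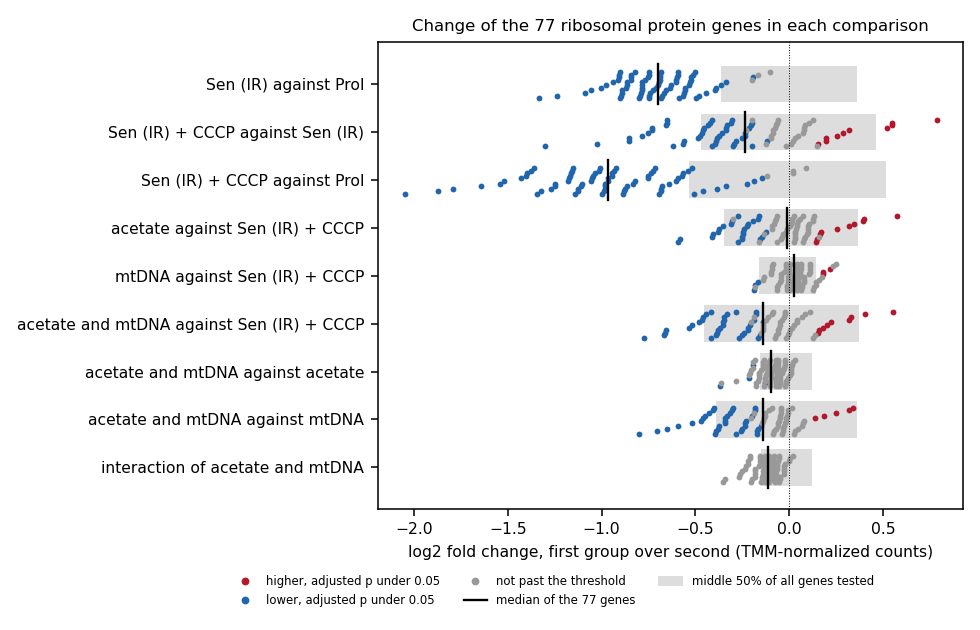
Log2 fold change (horizontal axis) of each of the 77 genes (dots) in the 9 comparisons (vertical axis), coloured by whether the gene passed an adjusted p of 0.05, with the median of the 77 genes as a black line and the middle 50% of all genes tested as a grey box. The dots lie left of 0 in Sen (IR) against Prol (74 lower, median -0.70), lie on both sides of 0 in Sen (IR) + CCCP against Sen (IR) (10 higher, 44 lower; the median of -0.24 is 0.02 with library totals as the only scaling) and lie close to 0 with mtDNA (3 higher, 3 lower).

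Removal of mitochondria from irradiated cells split the set. In Sen (IR) + CCCP against Sen (IR), 10 genes rose and 44 fell, where 34% of all genes tested were higher and 31.3% lower. The median log2 fold change was -0.24 over the 77 genes and 0.03 over all genes tested, and 58 of the 77 genes lay below the median of all genes. With library totals as the only scaling 29 genes were higher and 23 lower, where 48.4% of all genes were higher and 20.2% lower, so the signs moved with those of the whole table. Without Sen (IR) replicate 3 the set had 15 genes higher and 44 lower, with a median of -0.23. The SD of the change over the 77 genes was 0.37, against 0.22 in Sen (IR) against Prol. Over all genes tested it was larger, 0.99 here and 0.90 in Sen (IR) against Prol. The fibroblast markers and the share of mtDNA-encoded genes also differed between these groups, and their part in this result was not tested.

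The 3 largest rises were in RPLP0, RPL23A and RPS2. RPLP0 had 379, 403 and 442 CPM in Sen (IR) and 707, 689 and 709.9 CPM after CCCP, with no overlap (log2 fold change 0.78, SE 0.06, adjusted p = 5.46e-11). Of all 16994 genes tested 11504 had no overlap between these groups. RPL23A, at the mouth of the exit tunnel, had 328, 340.5 and 359 CPM in Sen (IR) and 500.0, 485 and 518 CPM after CCCP (0.55, SE 0.05, adjusted p = 6.35e-09). RPS2, near the entry of the mRNA into the small subunit, had 367, 399 and 451 CPM and then 592, 584 and 602 CPM (0.55, SE 0.06, adjusted p = 1.93e-08). Further genes that rose were RPL17 (0.52), RPS12 (0.32), RPL22 (0.29), RPL41 (0.25), RPS9 (0.20) and RPL7A (0.15), of which RPS12, RPS9 and RPL7A were named after their values were seen.

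Some of these genes share sequence with other annotated genes. Counts on their pseudogenes, which the table lists apart, came to 21.2% of the counts of RPL23A, 14.1% of those of RPL41, 11.2% for RPS2 and 4.08% for RPL17, against 0.907% for RPLP0. Of the exon length of RPL17, 32.9% is shared with another gene on the same strand, and of that of RPS2 25.9%. With the pseudogene counts added to each gene, an alternative also added after the data were seen, the log2 fold changes were 0.60 for RPL23A, 0.55 for RPS2, 0.79 for RPLP0, 0.46 for RPL17 and 0.27 for RPL41. Over the 77 genes the change had a Pearson correlation of 0.44 (Spearman's rho 0.39) with the pseudogene percentage and of 0.33 (rho 0.33) with mean log2 CPM, which is a description of genes measured in the same libraries.

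The 3 largest falls were in RPS27, RPL12 and RPL3. RPS27, a zinc-binding protein of the small subunit, had 118, 144 and 99.2 CPM in Sen (IR) and 46.6, 46.3 and 53.6 CPM after CCCP (-1.30, SE 0.11, adjusted p = 5.74e-10). RPL12 had 162, 172 and 191 CPM and then 86, 84.4 and 87.2 CPM (-1.03, SE 0.06, adjusted p = 7.31e-13). RPL3 went from 460.3, 466 and 456 CPM to 255, 250.4 and 260.2 CPM (-0.85, SE 0.04, adjusted p = 5.6e-14). RPL31, at the tunnel exit, was next, with 196, 209.6 and 199 CPM in Sen (IR) and 108, 108 and 118 CPM after CCCP (-0.85, SE 0.07, adjusted p = 1.79e-10). In each of these 4 genes every library after CCCP lay below every Sen (IR) library, where 11504 of all 16994 genes tested had no overlap.

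Genes of the stalk thus moved in opposite directions. RPLP0 rose, RPL12 fell, and RPLP2 fell to 48.2, 47.9 and 53.3 CPM (-0.75, SE 0.09, adjusted p = 1.95e-07). RPLP1 was at 132, 125 and 138 CPM after CCCP and did not pass the threshold (0.01, SE 0.09, adjusted p = 0.937). The ratio of RPLP0 to RPL12 counts within a library, which the scaling of libraries does not affect, was 2.43 ± 0.141 in Prol, 2.33 ± 0.0217 in Sen (IR) and 8.17 ± 0.0411 in Sen (IR) + CCCP (SD, n = 3). It was 5.70 ± 0.0727 with acetate, 7.23 ± 0.505 with mtDNA and 5.06 ± 0.543 with the combination. The ratio of RPLP0 to RPLP2 counts was 6.90 ± 0.195 in Prol, 4.92 ± 0.896 in Sen (IR) and 14.1 ± 0.716 in Sen (IR) + CCCP. Ratios and shares within the set were computed after the data were seen and are given with no test.

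The other genes followed by role mostly fell or were not called. RPL5 and RPL11 of the 5S particle fell by 0.20 (SE 0.05) and 0.47 (SE 0.06) on the log2 scale, and RPL10 by 0.38, but RPL5 had the opposite sign with library totals as the only scaling. RPL4 (0.08, adjusted p = 0.11) and RPL39 (-0.20, adjusted p = 0.0666) did not pass the threshold. In the small subunit RPS19 fell by 0.65, RPS6 by 0.39, RPS28 by 0.38 and RPS27A by 0.34 on the log2 scale, the last 2 of them not called with library totals as the only scaling, and RPS3 fell by 0.24, with the opposite sign under that scaling. RPS29 (-0.23, adjusted p = 0.0941), RPS26 (-0.09, adjusted p = 0.339), RPS4X (-0.09, adjusted p = 0.0757) and RPSA (0.02, adjusted p = 0.7) did not pass the threshold.

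**Figure D3:**
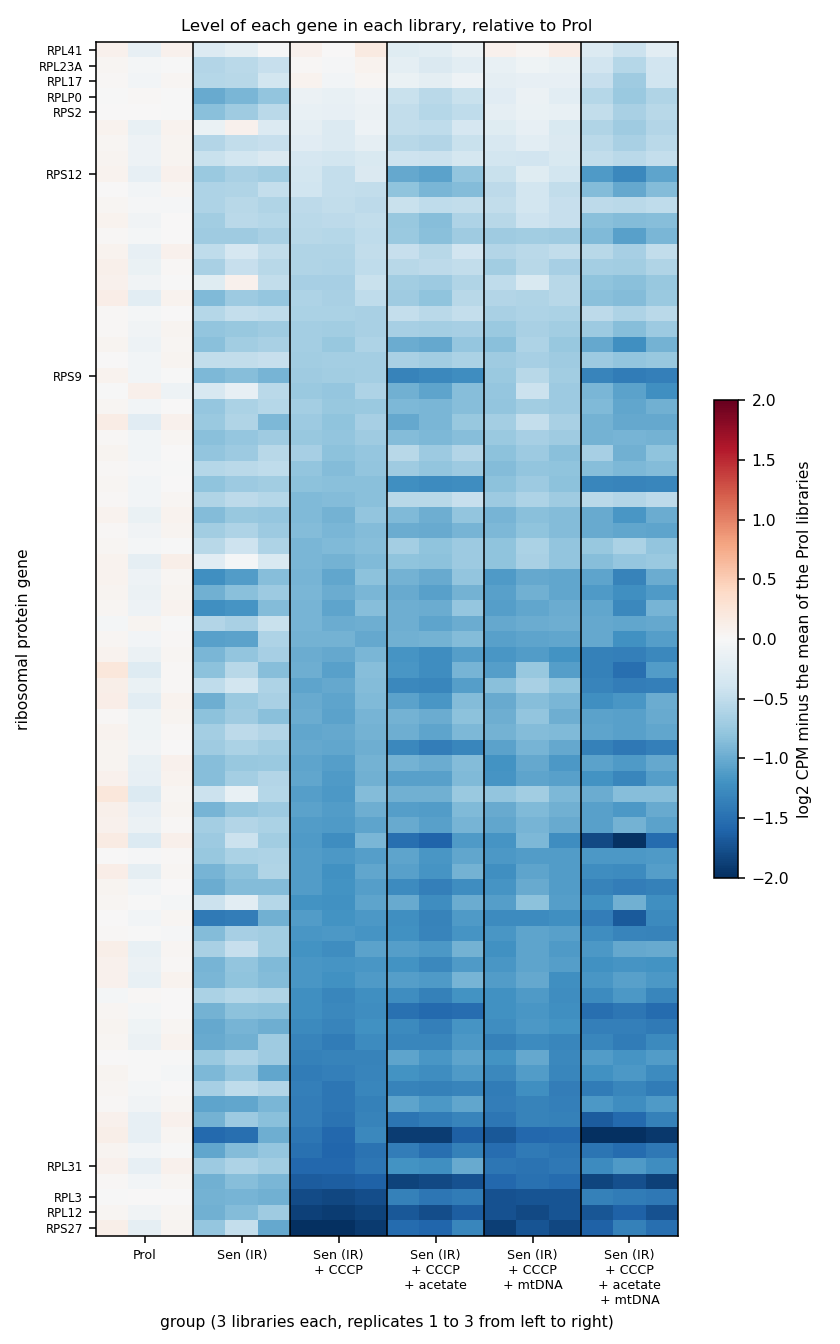
Log2 TMM-normalized CPM of each of the 77 genes (vertical axis, ordered by the change in Sen (IR) + CCCP against Prol, 11 genes labelled) in each of the 18 libraries (horizontal axis) minus the gene's mean over the 3 Prol libraries, as colour. After CCCP, RPL41, RPL23A, RPL17 and RPLP0 are near the Prol level (differences of 0.09, 0.02, 0.02 and -0.12) and RPS27, RPL12 and RPL3 are lowest (-2.05, -1.87 and -1.79); with library totals as the only scaling the first 4 are above Prol.

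Set against proliferating cells, Sen (IR) + CCCP had 73 genes lower and 0 higher, with 0 higher also at an unadjusted p under 0.05 and in DESeq2's Wald test, where 34.1% of all genes tested were lower and 35.1% higher. This comparison shares its Prol libraries with Sen (IR) against Prol. The median log2 fold change was -0.97, which is 0.511-fold, and 33 genes were lower by more than 2-fold, against 5 genes in Sen (IR). Of all 16994 genes tested, 4110 were called and changed by more than 2-fold in either direction here. In Sen (IR) against Prol 2215 were. RPS27 (-2.05, SE 0.11, adjusted p = 2.64e-13), RPL12 (-1.87, SE 0.06, adjusted p = 3.54e-17) and RPL3 (-1.79, SE 0.04, adjusted p = 3.46e-19) fell most. The 4 genes that were not called were RPLP0 (-0.12, SE 0.06, adjusted p = 0.0632), RPL17 (0.02, adjusted p = 0.827), RPL23A (0.02, adjusted p = 0.762) and RPL41 (0.09, SE 0.07, adjusted p = 0.296). With library totals as the only scaling the median was -0.61, where that of all genes was 0.38, and the 5 genes RPL17, RPL23A, RPL41, RPLP0 and RPS2 were higher, as were 53.9% of all genes.

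Shares of the set's own counts give the make-up of the ribosomal protein mRNA in each group. RPLP0 made up 2.77% of the set's counts in Prol, 2.43% in Sen (IR) and 4.56% in Sen (IR) + CCCP, and RPS27 0.731%, 0.720% and 0.317%. RPL3 had 3.22%, 2.75% and 1.66%, and RPL23A 1.80%, 2.05% and 3.25%. Over all 77 genes, 5.68% of the set's counts lay in other members of the set in Sen (IR) than in Prol. The value was 10.1% in Sen (IR) + CCCP against Sen (IR). Against Sen (IR) + CCCP it was 5.84% with acetate and 2.18% with mtDNA. These values compare group means. The same measure between libraries of a group was not computed, so they cannot be set against the spread of replicates.

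Acetate given to mitochondria-depleted cells raised 10 genes and lowered 24, where 28.8% of all genes tested were higher and 28.3% lower. The median log2 fold change was -0.01, and 0.01 over all genes tested. The number that fell depended on single libraries, being 14 without Sen (IR) + CCCP replicate 3, 13 without acetate replicate 1 and 12 without acetate replicate 2.

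The 3 largest falls with acetate were in the small subunit. RPS9, near the entry of the mRNA, had 112, 113 and 114 CPM in Sen (IR) + CCCP and 72.6, 74.6 and 77.6 CPM with acetate (-0.59, SE 0.05, adjusted p = 1.44e-09). RPS12, of the beak of the small subunit, had 132, 123 and 139 CPM and then 84.1, 80.9 and 98.4 CPM (-0.58, SE 0.08, adjusted p = 1.5e-06). RPS4X had 344, 342 and 343 CPM and then 262, 255 and 257 CPM (-0.41, SE 0.04, adjusted p = 2.96e-08). None of these 3 genes overlapped between the groups, nor did 11217 of the 16994 genes tested.

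The 3 largest rises were in RPS27, to 69.2, 66.6 and 81.5 CPM (0.57, SE 0.11, adjusted p = 0.000104), RPL31, to 141, 138 and 160.1 CPM (0.40, SE 0.07, adjusted p = 2.36e-05), and RPL3, to 345, 324 and 337 CPM (0.39, SE 0.04, adjusted p = 2.62e-08). For each of them every acetate library lay above every Sen (IR) + CCCP library, where 11217 of all 16994 genes tested had no overlap. RPLP0 was at 562, 522 and 563 CPM with acetate (-0.36, SE 0.06, adjusted p = 1.25e-05), RPS2 at 466, 440.3 and 461 CPM (-0.38, SE 0.06, adjusted p = 5.98e-06) and RPL23A at 434, 406 and 427 CPM (-0.25, SE 0.05, adjusted p = 0.00039), all lower than in Sen (IR) + CCCP. The changes with CCCP and with acetate share the Sen (IR) + CCCP libraries, so that opposite signs in them are not independent.

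Among the other genes followed by role, RPL12 (0.17, SE 0.06, adjusted p = 0.0167), RPS6 (0.32, SE 0.05, adjusted p = 1.42e-05) and RPS19 (0.25, SE 0.05, adjusted p = 0.000381) rose with acetate. RPL22, RPL41, RPL10, RPS26 and RPS28 fell by 0.30, 0.28, 0.27, 0.25 and 0.24 on the log2 scale. The call of RPS26 was lost without Sen (IR) + CCCP replicate 3, acetate replicate 1 or acetate replicate 2 (adjusted p from 0.0556 to 0.0763), and that of RPS28 without any 1 library other than acetate replicate 3 (adjusted p from 0.0656 to 0.218). RPL5 (-0.09, adjusted p = 0.0829), RPL11 (0.10, adjusted p = 0.152), RPLP1 (-0.16, adjusted p = 0.119) and RPLP2 (0.07, adjusted p = 0.508) did not pass the threshold.

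**Figure D4:**
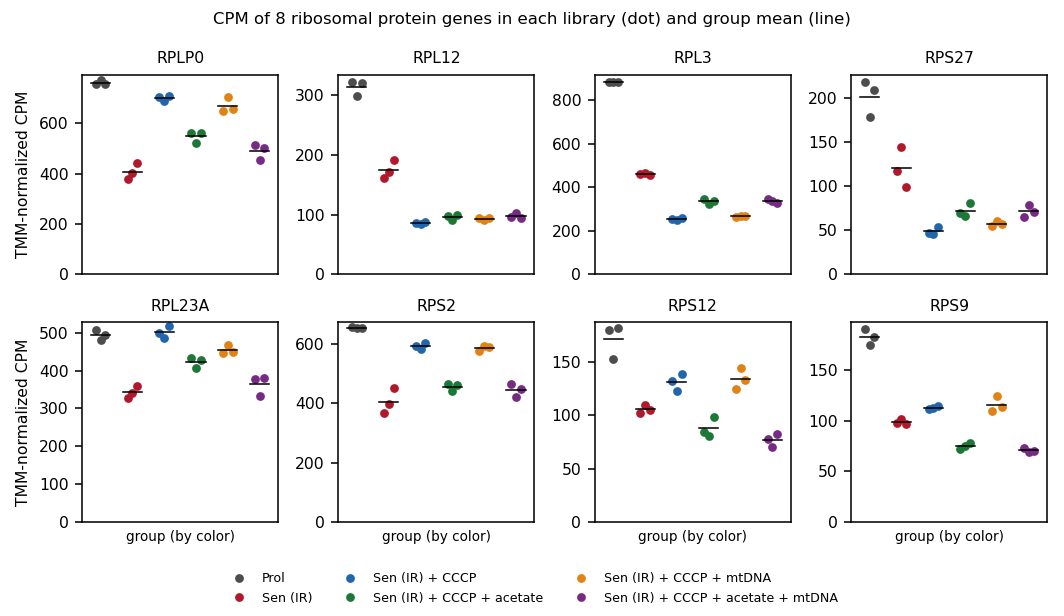
TMM-normalized CPM of 8 genes (vertical axes) in each of the 18 libraries by group (horizontal axes); dots are libraries and lines are group means. RPLP0, RPL23A and RPS2 were higher in Sen (IR) + CCCP than in Sen (IR), RPL12, RPL3 and RPS27 lower, and RPS9 and RPS12 were lowest in the 2 groups given acetate.

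Few genes of the set differed with mtDNA transfection. Of the 77 genes 3 rose and 3 fell, where 10.7% of all genes tested were higher and 7.4% lower, and the median log2 fold change was 0.02. The genes that rose were RPL35 (0.22, SE 0.07, adjusted p = 0.0462), RPL19 (0.18, SE 0.05, adjusted p = 0.00772) and RPS19 (0.18, SE 0.05, adjusted p = 0.0274). RPL17 (-0.19, SE 0.07, adjusted p = 0.0499), RPL27A (-0.18, SE 0.06, adjusted p = 0.0377) and RPL7A (-0.17, SE 0.05, adjusted p = 0.0232) fell. RPL19 had 211, 213 and 217 CPM in Sen (IR) + CCCP and 235, 253 and 238 CPM with mtDNA, and RPL7A had 453, 448 and 468 CPM and then 404, 408 and 406 CPM, without overlap in either gene. Of all 16994 genes tested 6363 had no overlap between these groups. Leaving out any 1 of the 6 libraries ended the calls of the 3 genes that fell, and 1 gene was higher without Sen (IR) + CCCP replicate 1, Sen (IR) + CCCP replicate 2 or mtDNA replicate 2. The 95% interval of the log2 fold change with mtDNA was -0.18 to 0.04 for RPLP0, -0.02 to 0.14 for RPL3, -0.06 to 0.14 for RPS9 and 0.02 to 0.45 for RPS27 (adjusted p = 0.158).

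With acetate and mtDNA together, more genes fell than rose. Against Sen (IR) + CCCP, 9 genes rose and 34 fell, where 30.3% of all genes tested were higher and 31.4% lower, with a median log2 fold change of -0.14 against -0.04 over all genes. The genes that fell were 17 of 46 in the large subunit, with a median of -0.09, and 17 of 31 in the small subunit, with a median of -0.19. The largest falls were in RPS12, to 77.8, 70 and 82.6 CPM (-0.77, SE 0.08, adjusted p = 2.3e-08), RPS9, to 73.2, 69.2 and 70.6 CPM (-0.67, SE 0.05, adjusted p = 1.94e-10), and RPS21, from 18, 16.7 and 20.8 CPM to 11.3, 10 and 13.6 CPM (-0.66, SE 0.14, adjusted p = 0.000372). The largest rises were in RPS27, to 65.6, 78.7 and 70.9 CPM (0.55, SE 0.11, adjusted p = 0.000147), RPL3, to 347, 337 and 328 CPM (0.40, SE 0.04, adjusted p = 1.69e-08), and RPL31, to 135, 148 and 137 CPM (0.33, SE 0.07, adjusted p = 0.000197). For these 6 genes the combination did not overlap with Sen (IR) + CCCP, as for 11251 of the 16994 genes tested. The median over the 77 genes was -0.07 without Sen (IR) + CCCP replicate 3, and without combination replicate 2 it was -0.09, with 8 genes higher and 29 lower.

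Against acetate alone, the comparison for mtDNA in the presence of acetate, the combination had 4 genes lower and 0 higher, with 0 higher also at an unadjusted p under 0.05 and in DESeq2's Wald test, where 6% of all genes tested were lower and 6.57% higher. At an unadjusted p under 0.05, 24 of the 77 genes were lower, and 12.9% of all genes. The median log2 fold change was -0.10, and 70 of the 77 genes lay below the median of all genes. RPL17, of the tunnel wall, fell from 80.4, 76.5 and 81.8 CPM to 64.1, 53.7 and 66.6 CPM (-0.37, SE 0.07, adjusted p = 0.000681) and RPL23A from 434, 406 and 427 CPM to 379, 332 and 381 CPM (-0.21, SE 0.05, adjusted p = 0.0101). RPL7A went from 396, 373 and 403 CPM to 360.2, 312 and 351 CPM (-0.19, SE 0.05, adjusted p = 0.0131) and RPL29 from 152, 144 and 150.0 CPM to 138, 133 and 136 CPM (-0.13, SE 0.04, adjusted p = 0.0385). Combination replicate 2 was the lowest library of both groups for each of these 4 genes, and without it 1 gene was called. The number called was also 1 without acetate replicate 1 and was 2 without acetate replicate 3.

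Against mtDNA alone, the comparison for acetate in the presence of mtDNA, 5 genes were higher and 35 lower, where 27.4% and 29.9% of all genes tested were. The median log2 fold change was -0.14, and -0.08 without mtDNA replicate 2. Without combination replicate 2, 6 genes were higher and 31 lower, with a median of -0.11. RPS12 (-0.80, SE 0.08, adjusted p = 1.67e-08), RPS9 (-0.71, SE 0.05, adjusted p = 1.07e-10) and RPS21 (-0.65, SE 0.14, adjusted p = 0.000541) fell most, and RPL3 (0.34, SE 0.04, adjusted p = 2.7e-07), RPS27 (0.32, SE 0.11, adjusted p = 0.0157) and RPL31 (0.25, SE 0.07, adjusted p = 0.00303) rose most. In cells without mtDNA, which are other libraries, RPS21 did not pass the threshold with acetate (-0.30, SE 0.14, adjusted p = 0.0666), while the changes of the other 5 genes are those given for acetate.

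Whether the changes with acetate and with mtDNA add up on the log2 scale was tested by their interaction. Of the 77 genes 0 were called by edgeR's quasi-likelihood test and 0 by DESeq2's Wald test, where 0.583% of all genes tested were lower and 0.0765% higher by edgeR. At an unadjusted p under 0.05, 7 of the 77 genes were lower and 0 higher, where 6.57% of all genes were lower and 4.84% higher. The values of the 77 genes ran from -0.35 to 0.02 with a median of -0.12, against -0.02 over all genes tested. Of the 77 genes 75 were negative, and of all 16994 genes tested 9235 were. RPS19 had an interaction of -0.23, SE 0.08, adjusted p = 0.22 and RPLP0 of -0.10, SE 0.08, adjusted p = 0.696. Over the 77 genes the value had a Pearson correlation of 0.59 (rho 0.57) with mean log2 CPM, which is a description of genes that share all libraries. Combination replicate 2 had the lowest share of ribosomal protein counts of all 18 libraries, 1.31%, and leaving out each of the 12 libraries in turn gave medians from -0.16 to -0.08.

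The changes were also read beside the sequences at the start of the transcripts. RPLP0, which rose after CCCP, and RPL12, which fell, both have an annotated start base that is a C followed by at least 4 pyrimidines. In Sen (IR) against Prol the median log2 fold change was -0.71 in the 58 genes with a tract and -0.62 in the 4 without, and in Sen (IR) + CCCP against Sen (IR) it was -0.30 and -0.15. With 4 genes without a tract these medians are a description only.

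Other mRNAs with a TOP tract fell with the set in senescence. For this list and those that follow, the shares of all genes tested that were higher and lower were 26.7% and 29.9% in Sen (IR) against Prol, 34% and 31.3% after CCCP, 28.8% and 28.3% with acetate, 10.7% and 7.4% with mtDNA, and 30.3% and 31.4% with the combination. Of 15 further genes known for the tract, mostly translation factors, 14 were tested. In Sen (IR) against Prol all 14 fell, with a median log2 fold change of -0.64, led by TPT1 (-1.19, SE 0.07, adjusted p = 4.79e-12). After CCCP 6 rose and 6 fell. EEF1A1, the elongation factor that brings aminoacyl-tRNA to the ribosome, went from 5835, 5776 and 6359 CPM in Sen (IR) to 1305, 1293 and 1243 CPM (-2.23, SE 0.07, adjusted p = 6.05e-17). With acetate 1 rose and 8 fell, led by EEF1B2, which went from 145, 142 and 144 CPM to 75.6, 77.7 and 79.6 CPM (-0.89, SE 0.05, adjusted p = 2.99e-12). With mtDNA 1 rose and 2 fell, and with the combination 3 rose and 8 fell.

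Genes that host small nucleolar RNAs, which guide the modification of ribosomal RNA, often carry the same kind of start. Of 8 such genes 4 fell in Sen (IR) against Prol (median -0.25), and 5 rose and 2 fell after CCCP (median 0.30), where 34% of all genes rose and 31.3% fell. SNHG1 had 28.7, 25.5 and 28.5 CPM in Sen (IR), 81.8, 71 and 67.9 CPM after CCCP (1.42, SE 0.08, adjusted p = 4.39e-13) and 27, 32.5 and 29.8 CPM with acetate (-1.30, SE 0.07, adjusted p = 2.35e-12). ZFAS1 (1.39, SE 0.10) and GAS5 (0.88, SE 0.08) rose after CCCP as well. With acetate 1 of the 8 genes rose and 6 fell, with mtDNA 2 rose and 1 fell, and with the combination 1 rose and 6 fell.

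Ribosome biogenesis genes, whose products make ribosomal RNA and assemble the subunits in the nucleolus, had another course than the ribosomal protein genes. Of 34 genes, 23 rose and 1 fell in Sen (IR) against Prol, with a median log2 fold change of 0.29 where the ribosomal protein genes had -0.70. The gene that fell was FBL, a methyltransferase of ribosomal RNA (-0.63, SE 0.05, adjusted p = 1.44e-09), and RRS1 rose most (0.77, SE 0.06, adjusted p = 4.19e-10). After CCCP 25 rose and 2 fell (median 0.35), led by POLR1B, a subunit of RNA polymerase I (0.97, SE 0.07, adjusted p = 4.8e-11). With acetate 32 of the 34 fell (median -0.46), led by POLR1E (-0.90, SE 0.07), PES1 (-0.85, SE 0.05) and NCL, the nucleolar protein nucleolin (-0.82, SE 0.05, adjusted p = 5.17e-12). NCL had 748, 728 and 645 CPM in Sen (IR), 936, 935 and 946 CPM after CCCP and 539.8, 544 and 515 CPM with acetate. With mtDNA 4 rose, and with the combination 32 fell.

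**Figure D5:**
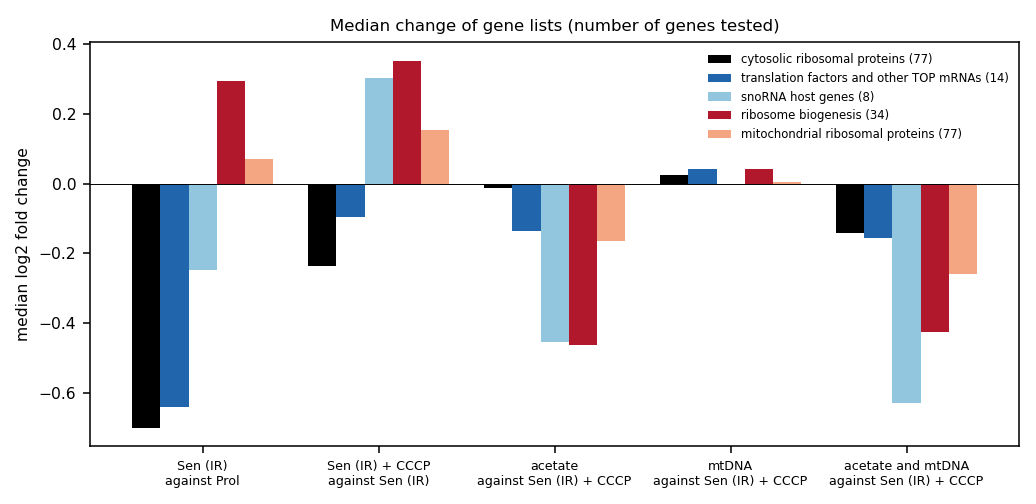
Median log2 fold change (bars from 0) of the 77 cytosolic ribosomal protein genes and of 4 other gene lists in 5 comparisons. In Sen (IR) against Prol the ribosomal protein genes and other TOP mRNAs are at -0.70 and -0.64 and the ribosome biogenesis genes at 0.29; with acetate the biogenesis genes are at -0.46 and the ribosomal protein genes at -0.01.

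Ribosomal protein genes and paralogues that the rule did not take were read beside the set. Of 10 such genes 8 were tested, of which 6 fell in Sen (IR) against Prol, 3 rose and 4 fell after CCCP, 2 rose and 2 fell with acetate, and 3 fell with the combination. RPL22L1, a paralogue of RPL22, had 47.4, 42.6 and 48.6 CPM in Prol, 12.8, 12.9 and 14.7 CPM in Sen (IR) (-1.78, SE 0.09, adjusted p = 1.93e-13) and 6.24, 6.09 and 6.68 CPM after CCCP (-1.09, SE 0.10, adjusted p = 2.13e-09). The ratio of RPL22 to RPL22L1 counts was 5.30 ± 0.053 in Prol, 12.8 ± 0.665 in Sen (IR) and 33.0 ± 0.776 in Sen (IR) + CCCP (SD, n = 3). RPS27L, a p53 target and paralogue of RPS27, had 302, 269 and 304 CPM in Prol and 139, 150.4 and 175 CPM in Sen (IR) (-0.91, SE 0.08, adjusted p = 1.59e-09), and was not called after CCCP (-0.15, SE 0.08, adjusted p = 0.0915). The ratio of RPS27 to RPS27L counts was 0.690 ± 0.0301 in Prol, 0.790 ± 0.202 in Sen (IR) and 0.350 ± 0.0251 in Sen (IR) + CCCP.

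Among regulators of ribosomal protein mRNA, 9 of 10 genes were tested. EIF4EBP1, a translational repressor downstream of mTOR, and MYC fell in Sen (IR) against Prol (-1.28, SE 0.09, and -0.40, SE 0.07), where 1 of the 9 genes rose and 4 fell. After CCCP 5 rose and 3 fell, where 34% and 31.3% of all genes did, with MYC at 0.72, SE 0.07, adjusted p = 7.99e-09, and LARP1, which binds the TOP tract, going from 215, 233 and 224 CPM to 335, 351 and 340.5 CPM (0.61, SE 0.05, adjusted p = 9.39e-11). With acetate 3 rose and 2 fell, MYC falling (-0.73, SE 0.07) and EIF4EBP1 rising (0.68, SE 0.09). With mtDNA 4 rose and 1 fell, led by EIF4EBP1 (0.60, SE 0.09) and MYC (0.48, SE 0.07), and with the combination 3 rose and 2 fell.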

How the data were processed

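Libraries of poly(A) RNA, per the labels, were sequenced in pairs of reads and, per the study's methods, trimmed with Trimmomatic 0.36, aligned to GRCh38 with STAR 2.5.2b and counted per gene with featureCounts (Subread 1.5.2). Strand-specific libraries were counted by strand, but whether these libraries were of that kind is not given in the sources used here. The deposited table holds raw counts per gene and the authors deposited TPM beside them. The counts were tested with edgeR 4.0.16 (quasi-likelihood test, TMM, filterByExpr, all 18 libraries and 6 group means, R 4.3.3), with p-values adjusted over all 16994 genes tested by the Benjamini-Hochberg method and a threshold of 0.05. SEs are the log2 fold change divided by the square root of F. Ribosomal protein genes were read from the fit of the whole table, after the scripts were tested on simulated counts. Shares of counts and of TPM carry no test.

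Alternatives were DESeq2 1.42.0, other normalization, filters and samples, and library totals alone or pseudogene counts added to their parent genes, both chosen after the data were seen. The members, lists and tests were chosen with earlier results of these data known. Named genes are 24 fixed by role, the 3 largest rises and falls in each comparison, the 3 highest and 3 lowest by mean TPM, up to 3 genes per list and comparison, and 2 paralogues, of which some are not reported here. The labels number the replicates but do not say whether they are separate cultures. For its RNA-seq heat maps of these treatments the paper gives n = 3 and says that n counts independent experiments. The p-values measure only the spread between these libraries. No replicate block was used, because the methods state none. Replicate numbers did not pair libraries across groups (median correlation of deviations 0.00525 over 45 pairs, 0 of them over 0.1). At 24624886 counts or more per library, the lowest gene of the set had 244 counts.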

Additional observations from a re-analysis of the deposited data

How the results depend on the processing

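When any 1 library was left out, Sen (IR) against Prol kept 73 to 76 genes lower and a median of -0.77 to -0.68. Its median was -0.605 with library totals as the only scaling, where that of all genes was 0.0830. With library totals as the only scaling, Sen (IR) + CCCP against Sen (IR) had 29 higher and 23 lower genes with a median of 0.0217, Sen (IR) + CCCP against Prol 5 higher with a median of -0.61, acetate 6 higher with a median of -0.13, mtDNA 0 higher, the combination 3 higher and 59 lower with a median of -0.32, the combination against acetate 13 lower, and the combination against mtDNA 1 higher and 54 lower with a median of -0.25. These moves are mostly those of the whole table, since under that scaling 48.4% of all genes were higher in Sen (IR) + CCCP against Sen (IR) and 43.6% lower with the combination. In the same comparisons 20.2% were lower and 20.8% higher. In Sen (IR) + CCCP against Prol 53.9% of all genes were higher, with acetate 21.7% and with mtDNA 6.98%. In the combination against acetate 9.4% were lower, and against mtDNA 21.3% were higher and 37.5% lower. The median of all genes was 0.29 in Sen (IR) + CCCP against Sen (IR), 0.38 in Sen (IR) + CCCP against Prol, -0.12 with acetate, -0.21 with the combination, -0.0558 in the combination against acetate and -0.13 in the combination against mtDNA. Relative to it the set's median was -0.26, -0.996, -0.0184, -0.105, -0.0956 and -0.121, against -0.26, -0.998, -0.0178, -0.105, -0.0953 and -0.120 with TMM. Single genes with the opposite sign there were, in Sen (IR) + CCCP against Sen (IR), RPL5 (0.0608), RPS26 (0.18), RPS3 (0.0217) and RPS4X (0.17), and in Sen (IR) + CCCP against Prol RPLP0 (0.23).

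With the call rule of the study's methods (DESeq2, unadjusted p under 0.05 and a log2 fold change over 0.5 in size), Sen (IR) + CCCP against Sen (IR) had 4 higher and 15 lower, acetate 1 and 2, mtDNA 0 and 0, the combination 1 and 5, the combination against mtDNA 0 and 4, and the combination against acetate 0 lower. Under that rule 19.8% of all genes were higher and 21.5% lower in Sen (IR) + CCCP against Sen (IR), 15.8% and 15.3% with acetate, 4.35% and 5.2% with mtDNA, 18.2% and 18% with the combination, and 16.5% and 15.7% in the combination against mtDNA, and 4.52% were lower in the combination against acetate. With the compared groups alone in the fit, mtDNA had 7 higher and 8 lower, where 13% and 11.7% of all genes were. The combination against acetate had 2 lower in such a fit, where 4.48% of all genes were lower. Without a filter on low counts the combination against acetate had 14 lower and the interaction 1 lower. Of the 37483 genes then tested, 2.92% and 0.76% were lower. The causes of these differences were not tested. The share of TPM with pseudogenes added was 3.91% in Prol, 2.61% in Sen (IR), 3.44% in Sen (IR) + CCCP, 2.96% with acetate, 3.23% with mtDNA and 2.69% with the combination, and without mtDNA-encoded genes in the total it was 4.11% in Prol and 2.58% in Sen (IR).

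Leaving out each library in turn gave 12 to 22 genes lower with acetate, 1 to 3 higher and 0 lower with mtDNA, and 1 to 4 lower in the combination against acetate. The median ranged from -0.139 to -0.0718 for the combination and from -0.158 to -0.0805 for the combination against mtDNA. Among the genes named, leaving out single libraries ended the calls of RPL17, RPL27A, RPL7A, RPL35 and RPS19 with mtDNA, of RPL23A, RPL29 and RPL7A in the combination against acetate, and of RPS26 and RPS28 with acetate. In the fit with the replicate number as a block, Sen (IR) against Prol had 75 genes lower, Sen (IR) + CCCP against Sen (IR) 11 higher and 45 lower, acetate 10 and 24, mtDNA 2 and 3 and the combination 9 and 37, and no count moved by over 1.5 times. Under that fit 30% of all genes were lower in Sen (IR) against Prol. In Sen (IR) + CCCP against Sen (IR) 34% were higher and 31.2% lower. The shares were 29% and 28.4% with acetate, 10.8% and 7.57% with mtDNA, and 30.3% and 31.5% with the combination. Of 90 pairings of a library with another group, the library of the same number had the highest correlation in 27, and 0 of 18 libraries correlated best with their own number throughout. Depth limits little here, since every gene of the set had at least 244 counts in every library.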

Other observations

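Mitochondrial ribosomal proteins, which are encoded in the nucleus and build the ribosome of the organelle that CCCP treatment removed, were read as a separate list of 77 genes, all of them tested. In Sen (IR) against Prol 28 rose and 10 fell, with a median log2 fold change of 0.07, where 26.7% of all genes tested were higher and 29.9% lower and the cytosolic ribosomal protein genes had a median of -0.70. After CCCP 38 rose and 14 fell (median 0.15), where 34% of all genes were higher and 31.3% lower. With acetate 6 rose and 36 fell (median -0.16), where 28.8% of all genes were higher and 28.3% lower. With mtDNA 4 rose and 2 fell (median 0.01), fewer than the 10.7% and 7.4% of all genes, and with the combination 7 rose and 47 fell (median -0.26), where 30.3% of all genes were higher and 31.4% lower.

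Pseudogenes of the cytosolic ribosomal protein genes, listed apart in the table, held few counts and a changing share. Of 1135 such entries 69 passed the filter on low counts, of which 16 rose and 9 fell after CCCP, lower shares than the 34% and 31.3% of all genes tested. Their counts together came to 1.21% of the counts of the 77 parent genes in Prol, 1.53% in Sen (IR), 2.48% in Sen (IR) + CCCP, 2.21% with acetate, 2.25% with mtDNA and 2.15% with the combination. For RPL13A the share was 1.10% in Prol and 14.2% in Sen (IR) + CCCP. Whether these counts come from the pseudogenes or from reads of the parent genes was not tested.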
